A study of Sorghum bicolor with 12 samples.

Results

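Of 27989 annotated sorghum transcripts, 256 (0.915%) were at least 4 times higher in the genotype IS22330 than in the genotype IS20351, both in drought-stressed and in well-watered plants. They were chosen on the mean level of each of the 4 groups, in RPKM (mapped reads scaled by transcript length and library size). The rule asked for a mean above 0.0011 RPKM in all 4 groups, so that reads were present in each, for at least 1 RPKM in both IS22330 groups, and for an IS22330 to IS20351 ratio of at least 4 under each treatment. The 256 transcripts belonged to 254 genes and made up 1.36% of the 18819 transcripts called expressed here, with reads in all 4 groups and at least 1 RPKM in 1 of them. The mirrored rule, at least 4 times lower in IS22330 under both treatments, kept 171 transcripts (0.909%). Since these means chose the transcripts, the differences between the genotypes below are a description. The response to drought within a genotype was tested, as was its difference between the genotypes. The rule set no limit on a drought ratio itself, but it bounded the same 4 group means. The shares of members set beside all transcripts in these tests are therefore not free of the choice.

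RNA was extracted from the leaf meristem of Sorghum bicolor plants of the durra race and sequenced after poly-A selection. The 4 groups of 3 libraries each were drought-stressed IS22330 plants (DS), well-watered IS22330 plants (WW), drought-stressed IS20351 plants and well-watered IS20351 plants. IS22330 is described in the study as the tolerant and IS20351 as the sensitive genotype, and each is 1 accession, so that a difference between them belongs to these accessions and not to tolerance as such. Plants were grown 1 to a pot. DS plants were held at a fraction of transpirable soil water (FTSW) of 0.2 for 9 days, and WW plants close to 0.7. Plants of all groups were sampled on day 42 after emergence.

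Accessions of a crop differ in the genes they carry and in how strongly they express them, and a transcript that differs between accessions whatever the water supply is called constitutively different. Such a difference is present without stress, in contrast to a response to drought, in which a plant changes the level of a transcript as the soil dries. In grasses, near-identical gene copies often lie next to each other on a chromosome, and a read that fits several copies equally cannot be given to one of them.

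The total of reads on transcripts ranged between 26398759 and 28680141 in the 12 libraries. Within a group the letters a to c name the libraries in order of their totals, since the deposited values carry no replicate numbers. Transcripts of the light reactions and the Calvin cycle, defining products of leaf tissue, were present: 27 of 28 had reads in all 12 libraries. These 28 were taken from a pathway list that the study drew up from changes in these same samples, so that their difference between DS and WW libraries of IS20351 restates that choice and only their presence and the place of single IS22330 libraries are read here. Their summed level was 2272, 2453 and 13647 RPKM in libraries a to c of the DS plants of IS22330 and between 5963 and 10098 RPKM in the IS22330 WW libraries. In IS20351 it lay between 2458 and 3146 RPKM in DS and between 12366 and 15383 RPKM in WW libraries. A drought score, the mean log2 level of the 682 transcripts higher in DS than in WW IS20351 plants minus that of the 1167 lower ones, was 1.1, 0.757 and -2.52 in libraries a to c of the DS plants of IS22330 and between -2.38 and -0.979 in the IS22330 WW libraries. The IS22330 DS library c thus stood among the well-watered libraries, and the main counts that use it are also given without it, a choice made after seeing the data. Leaving it out, 259 transcripts met the rule, of which 228 were members. Meristem markers could not be matched by name and are not analysed here. In bulk tissue, fewer cells of a type and less RNA per cell cannot be told apart.

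The 256 transcripts were mostly at moderate levels in IS22330 and close to the detection limit in IS20351. Their median over transcripts was 6.75 RPKM in IS22330 DS against 0.433 RPKM in IS20351 DS plants, and 7.37 RPKM in IS22330 WW against 0.462 RPKM in IS20351 WW plants. In IS20351, 156 (60.9%) were under 1 RPKM in both treatments and 55 (21.5%) at or above 1 RPKM in both. In the mean of both IS22330 groups, 7 transcripts reached 100 RPKM, 95 (37.1%) reached 10 RPKM and 91 (35.5%) stayed under 5 RPKM. The median number of reads per transcript and library was 180.5 in IS22330 DS and 12 in IS20351 DS, and 211 in IS22330 WW and 13 in IS20351 WW. At 12 reads a level has a wide counting error, so the ratios of the weakest transcripts in IS20351 are imprecise.

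The median ratio of IS22330 to IS20351 was 13.3 in DS plants (4.02 to 1243) and 12.7 in WW plants (4.12 to 1488). The smaller of both ratios had a median of 8.40. It was under 8 for 124 transcripts (48.4%), at least 10 for 113 (44.1%) and at least 100 for 8 (3.12%). The ratios under both treatments were within 2-fold of each other for 146 transcripts (57%), and the ratio was the larger in DS for 136 (53.1%). Every one of the 6 IS22330 libraries lay above every one of the 6 IS20351 libraries for 183 of the 251 members that entered the fit below, where 3.66% of all 19023 transcripts fitted did so. The 251 exclude 5 members that reached 1 RPKM in fewer than 3 libraries (Sb01g030324.1, Sb03g012310.1, Sb04g027355.1, Sb06g028210.1 and Sb07g004910.1), for which the libraries of the genotypes overlapped. With 3 libraries against 3, the genotypes did not overlap for 216 members in DS (9.05% of all fitted transcripts) and 227 in WW plants (13% of all). Without the IS22330 DS library c, the 2 remaining DS libraries lay above the 3 of IS20351 for 234 of 245 members (18% of all). These shares follow from the choice of members. Without the IS22330 DS library c, 200 of the 256 had all remaining IS22330 libraries above those of IS20351. The lowest IS22330 library was at least 4 times the highest IS20351 library for 77 members (30.1%). Without the DS library c this was so for 87 members, compared with 1.52% of the 18919 transcripts fitted without it. The libraries of the genotypes overlapped for 73 members (28.5%). The counts of 200, 77 and 73 were not taken over all transcripts, and these counts, too, depend on the choice of members.

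**Figure D1:**
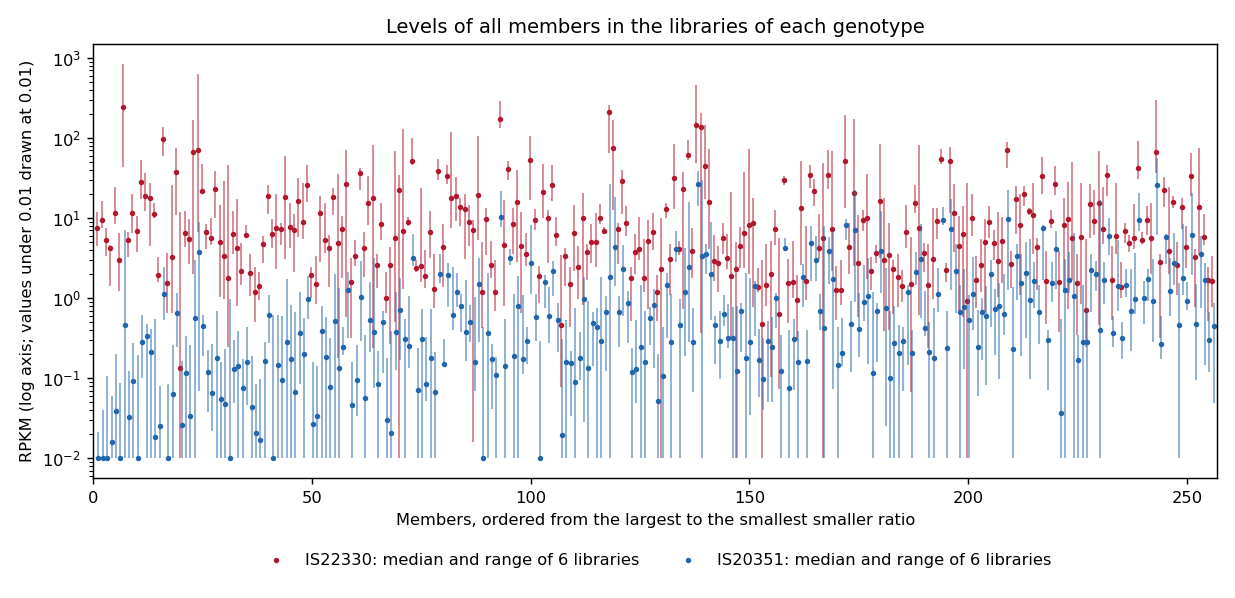
RPKM (log axis) of the 256 transcripts, ordered along the horizontal axis from the largest to the smallest of their smaller ratios; points are medians and lines ranges over the 6 libraries of IS22330 (red) and of IS20351 (blue), and values under 0.01 RPKM are drawn at 0.01. The red points stay above the blue ones over the whole width, while the ranges meet for 73 transcripts.

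Most transcripts with the largest ratios had few uniquely mapped reads in IS20351. Whether they are hardly expressed there, or their reads did not map uniquely to the reference genome, was not tested. Sb08g021870.1 had 11.7, 12.0 and 5.35 RPKM in IS22330 DS and 4.54, 9.47 and 4.86 RPKM in IS22330 WW libraries, against 0, 0 and 0.0214 RPKM in IS20351 DS and 0, 0 and 0.0206 RPKM in IS20351 WW libraries. That was 4496 reads over the 6 IS22330 libraries against 4 reads over the 6 IS20351 libraries, a ratio of reads per total of 1121 with an exact 95% counting interval of 437 to 4115. Only 1 library of each IS20351 group held any read of it. Intervals of this kind cover counting error alone, not the spread between plants, and reads from amplified libraries are not independent molecules. Sb08g002350.1 had 8.91, 9.57 and 16.3 RPKM in IS22330 DS and 7.61, 9.29 and 15.9 RPKM in IS22330 WW libraries, against 0, 0 and 0.0401 RPKM in IS20351 DS and 0.0201, 0 and 0 RPKM in IS20351 WW libraries. Its 6786 reads in IS22330 and 6 reads in IS20351 gave a ratio of 1128 (518 to 3074).

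The next 3 had between 4 and 18 reads over all IS20351 libraries. Sb08g002410.1 had between 3.36 and 7.57 RPKM in the 6 IS22330 libraries, against at most 0.106 RPKM in the IS20351 libraries, with 3796 and 18 reads and a ratio of 210 (133 to 355). Sb06g027386.1 had 4.31, 4.59 and 1.42 RPKM in IS22330 DS and 4.13, 4.46 and 4.09 RPKM in IS22330 WW libraries, and 734 reads against 4 in IS20351 gave a ratio of 183 (71.2 to 673). Sb05g008260.1 had 12.0, 15.4 and 8.35 RPKM in IS22330 DS and 24.7, 8.75 and 11.2 RPKM in IS22330 WW libraries, with 2010 reads against 9 in IS20351 and a ratio of 223 (117 to 488). Sb08g002410 lies close to Sb08g002350 on chromosome 8, in a stretch described below.

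The remaining 5 of the 10 largest ratios differed more among themselves. Sb07g004690.1 was both the most abundant member and the most uneven of these 10. It had 51.2, 43.1 and 847 RPKM in IS22330 DS and 518, 176 and 315 RPKM in IS22330 WW libraries, against 0, 0 and 0.824 RPKM in IS20351 DS and 7.12, 0.0944 and 1.59 RPKM in IS20351 WW libraries. All IS22330 libraries were above all IS20351 libraries, but the IS22330 libraries differed among themselves by more than 10-fold, and the highest of them was the DS library c. Sb0951s002010.1, on an unplaced scaffold, had 19.4, 20.0 and 6.55 RPKM in IS22330 DS and 9.10, 12.0 and 11.1 RPKM in IS22330 WW libraries, with 2582 reads against 23 in IS20351 and a ratio of 112 (74.4 to 177). Sb04g020750.2 had 896 reads against 6 and a ratio of 149 (68.1 to 407), Sb02g027090.1 971 reads against 8 and a ratio of 121 (61.2 to 281), and Sb09g001465.1 254 reads against 2 and a ratio of 127 (34.7 to 1051). The last interval spans more than a 10-fold range, so its ratio is known only roughly.

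**Figure D2:**
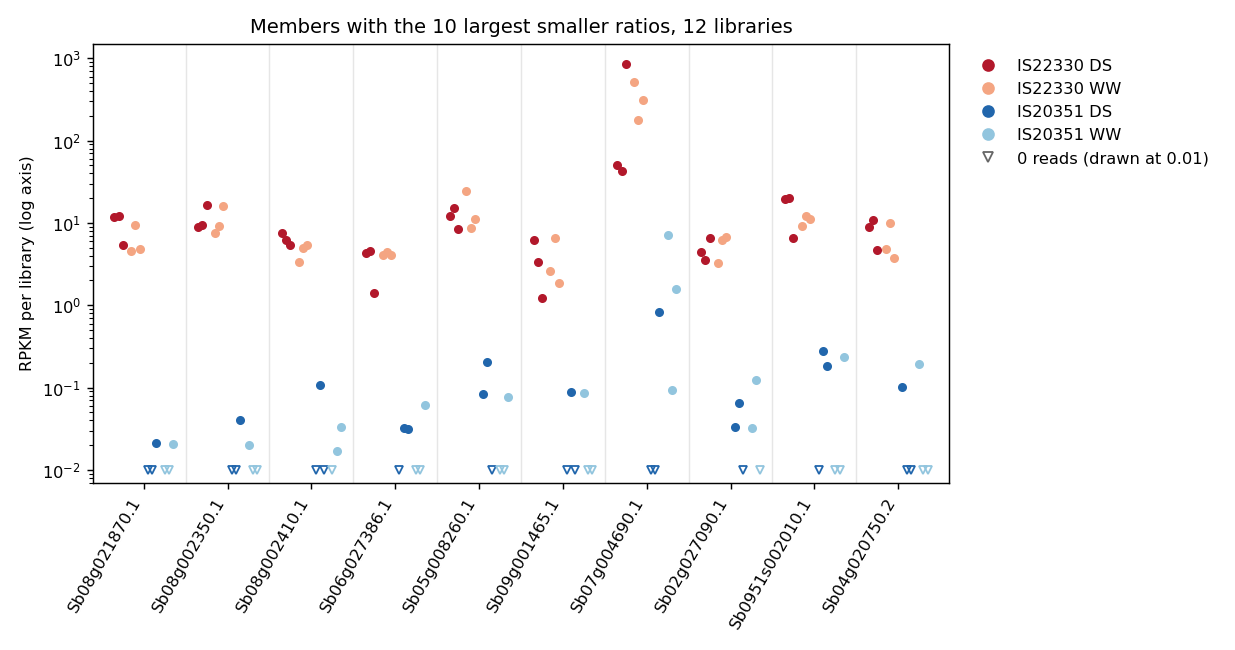
RPKM per library (log axis) of the 10 transcripts with the largest smaller ratio; each point is 1 library of IS22330 DS, IS22330 WW, IS20351 DS or IS20351 WW, and open triangles at 0.01 are libraries with 0 reads. Every IS22330 library of these transcripts lies above every IS20351 library, and the widest spread within IS22330 is that of Sb07g004690.1, between 43.1 and 847 RPKM.

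The most abundant members comprised steady and erratic transcripts. Sb05g025080.1 had 134, 136 and 291 RPKM in IS22330 DS and 164, 209 and 185 RPKM in IS22330 WW libraries, against 7.67, 13.7 and 9.22 RPKM in IS20351 DS and 10.6, 22.1 and 10.3 RPKM in IS20351 WW libraries. Its libraries were well apart between the genotypes, with ratios of 18.3 in DS and 13.0 in WW plants. Sb04g003040.1 had 75.4, 99.7 and 96.4 RPKM in IS22330 DS and 59.0, 130 and 138 RPKM in IS22330 WW libraries, against 1.31, 2.45 and 0.539 RPKM in IS20351 DS and 0.840, 1.07 and 1.15 RPKM in IS20351 WW libraries. It was thus abundant in all IS22330 libraries and between 0.539 and 2.45 RPKM in the IS20351 libraries, with ratios of 63.0 in DS and 107 in WW plants. Sb03g009240.1 had 48.7, 68.2 and 330 RPKM in IS22330 DS and 455, 142 and 145 RPKM in IS22330 WW libraries, against 14.2, 24.9 and 14.2 RPKM in IS20351 DS and 38.2, 28.0 and 33.0 RPKM in IS20351 WW libraries. The DS library c was again far above the other DS libraries.

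Other abundant members overlapped between the genotypes or rested on a few libraries. Sb02g033280.1 had 383, 629 and 6.71 RPKM in IS22330 DS and 24.8, 77.7 and 63.7 RPKM in IS22330 WW libraries, against 8.89, 5.48 and 6.50 RPKM in IS20351 DS and 0.572, 2.12 and 0.0688 RPKM in IS20351 WW libraries. Its DS library c was within the range of the IS20351 DS libraries. Sb07g021850.1 had 163, 204 and 0.369 RPKM in IS22330 DS and 3.64, 143 and 135 RPKM in IS22330 WW libraries, against 30.0, 14.5 and 5.37 RPKM in IS20351 DS and 0, 1.43 and 0.106 RPKM in IS20351 WW libraries. Here 2 of the 6 IS22330 libraries, DS c and WW a, lay below the IS20351 DS libraries. Sb02g003810.1 had 48.4, 168 and 1.99 RPKM in IS22330 DS and 84.4, 14.3 and 148 RPKM in IS22330 WW libraries, against at most 2.96 RPKM in IS20351. Sb08g019960.1 had 166, 12.8 and 88.6 RPKM in IS22330 DS and 133, 23.4 and 62.0 RPKM in IS22330 WW libraries, against 10.5, 1.40 and 18.6 RPKM in IS20351 DS and 5.20, 3.35 and 3.46 RPKM in IS20351 WW libraries. For Sb02g003810.1 and Sb08g019960.1 the libraries of the genotypes overlapped in DS and not in WW plants. Sb10g001190.1 and Sb02g025640.1 complete the 10 most abundant and are described with the response to drought.

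Among themselves, the IS22330 libraries varied more for the members than for other transcripts. The rule asked for high IS22330 means, which 1 high library can carry, so the choice itself can favour such spread. Its part in the values below was not tested. The coefficient of variation over the 6 IS22330 libraries had a median of 0.505 for the members and of 0.348 for the 17350 expressed transcripts at a mean of at least 1 RPKM. All 6 IS22330 libraries were within 2-fold of each other for 30 members (11.7%), compared with 5115 (29.5%) of those 17350. Without the DS library c this was so for 54 members (21.1%), compared with 38.9% of the 18919 transcripts fitted without it. The 6 IS22330 libraries were more than 10-fold apart, or contained a library with 0 reads, for 73 members (28.5%). One library held more than 80% of the sum of its IS22330 group for 28 members, most often the DS library c (13 members) or the WW library a (12 members). The counts of 73 and 28 were not taken over all transcripts, so they describe the members and set them apart from no others. The rule was still met with any single library left out by 131 of the 256 members. It was met on the median of the 3 libraries in place of the mean by 220 transcripts, of which 174 were members.

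At the steady end, chosen after the values were seen, stood Sb09g020700.1, Sb04g017805.1 and Sb06g031756.1. Sb06g031756.1 had 27.5, 33.9 and 25.9 RPKM in IS22330 DS and 31.6, 31.5 and 28.4 RPKM in IS22330 WW libraries, against 5.60, 4.09 and 3.88 RPKM in IS20351 DS and 5.41, 4.15 and 4.19 RPKM in IS20351 WW libraries. Its levels differed little within either genotype, and its ratios were 6.43 in DS and 6.66 in WW plants. Sb09g020700.1 had 6.93, 7.48 and 6.77 RPKM in IS22330 DS and 6.30, 7.06 and 7.80 RPKM in IS22330 WW libraries, against at most 0.804 RPKM in IS20351 DS and 1.05 RPKM in IS20351 WW libraries. Sb04g017805.1 was as even in IS22330, between 10.8 and 13.3 RPKM, but ranged between 0.0964 and 5.43 RPKM in IS20351.

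Members just inside the threshold had smaller ratios of 4.02 (Sb10g031290.1), 4.03 (Sb03g006765.1) and 4.12 (Sb07g023966.1). Just outside were Sb01g029930.1 (3.997), Sb10g003220.1 (3.996) and Sb01g020300.1 (3.988). Sb10g031290.1 averaged 1.48 RPKM in IS22330 DS against 0.367 RPKM in IS20351 DS plants, and Sb10g003220.1 averaged 1.77 RPKM in IS22330 WW against 0.443 RPKM in IS20351 WW plants.

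Members with a named function were few, since names were at hand only for the 174 transcripts of a pathway list that the study had chosen on these same samples, which is therefore not independent evidence of any direction. Only 3 members were on it. Sb09g025510.1 is named an O-methyltransferase family 2 protein after Arabidopsis, a family of enzymes that place methyl groups on phenolic and other secondary compounds. It had 1.61, 1.92 and 38.6 RPKM in IS22330 DS and 0.391, 45.5 and 0.243 RPKM in IS22330 WW libraries, against 0, 0.983 and 0 RPKM in IS20351 DS and 0.0554, 0 and 0 RPKM in IS20351 WW libraries. Its mean rested on 1 library in each IS22330 group, DS c and WW b, while the other 4 IS22330 libraries were at or under 1.92 RPKM.

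Sb07g004485.1 is named terpene synthase 10 after rice, a family that makes volatile and defensive terpenes. It had 1.16, 3.55 and 13.6 RPKM in IS22330 DS and 18.0, 4.08 and 12.1 RPKM in IS22330 WW libraries, against 0.869, 0.821 and 0 RPKM in IS20351 DS and 3.05, 2.61 and 1.64 RPKM in IS20351 WW libraries. The genotypes did not overlap within either treatment, but the lowest IS22330 DS library was under the IS20351 WW libraries. Both transcripts are on the list's secondary metabolism part, 60 of whose 67 transcripts had reads in all 4 groups. Of these 60, 7 were at least 2-fold higher and 3 at least 2-fold lower in IS22330 under both treatments. Sb03g028410.1, a ceramidase family protein after Arabidopsis, belongs to enzymes that split ceramide, a building block of sphingolipids. It had 15.3, 14.0 and 2.02 RPKM in IS22330 DS and 2.64, 6.53 and 4.61 RPKM in IS22330 WW libraries, against 3.04, 2.85 and 1.49 RPKM in IS20351 DS and 0.295, 0.366 and 0.283 RPKM in IS20351 WW libraries. In the list's lipid part, 45 of 49 transcripts had reads in all groups, with 5 at least 2-fold higher and 5 at least 2-fold lower in IS22330 under both treatments.

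For part of the genes with several annotated transcripts, the genotypes differed in one transcript and not in the other. Such genes held 18 members (7.03%, compared with 10.6% of expressed transcripts), from 16 genes. Of the 12 other transcripts of these genes that reached 1 RPKM in a group, 6 were within 2-fold between the genotypes under both treatments, 4 were over 2-fold higher and 1 over 2-fold lower in IS22330 under both, and 1 was neither. How reads shared by transcripts of a gene were counted is not given in the sources used here, so the split between them is uncertain. Sb07g002900.2 averaged 13.9 and 12.7 RPKM in IS22330 DS and WW plants, against 0.921 and 0.663 RPKM in IS20351 DS and WW plants. Its partner Sb07g002900.1 averaged 77.5 and 71.6 RPKM in IS22330 DS and WW plants, against 58.7 and 72.1 RPKM in IS20351 DS and WW plants. Only the less abundant transcript of this gene thus differed between the genotypes by the rule.

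Sb04g020750.2, among the 10 largest ratios, showed the same kind of pattern. It averaged 8.15 and 6.26 RPKM in IS22330 DS and WW plants, against 0.0344 and 0.0653 RPKM in IS20351 DS and WW plants, while Sb04g020750.1 averaged 5.34 and 4.42 RPKM in IS22330 against 4.30 and 3.49 RPKM in IS20351 plants. In IS22330 the member was thus the more abundant transcript of its gene, and in IS20351 the other transcript made up nearly all of the level. The genes with most transcripts were Sb09g002800 with 4 and Sb01g023260 with 3, and the third place was shared by those with 2. Sb09g002800.5 averaged 7.16 and 4.00 RPKM in IS22330 DS and WW plants, against 1.43 and 0.393 RPKM in IS20351 DS and WW plants, and Sb09g002800.2 was also a member. Sb09g002800.1 ran the other way, with 0.691 and 0.604 RPKM in IS22330 DS and WW plants, against 5.35 and 1.26 RPKM in IS20351 DS and WW plants. Of Sb01g023260, the member Sb01g023260.2 averaged 5.47 and 5.78 RPKM in IS22330 DS and WW plants, against 0.662 and 1.35 RPKM in IS20351 DS and WW plants.

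**Figure D3:**
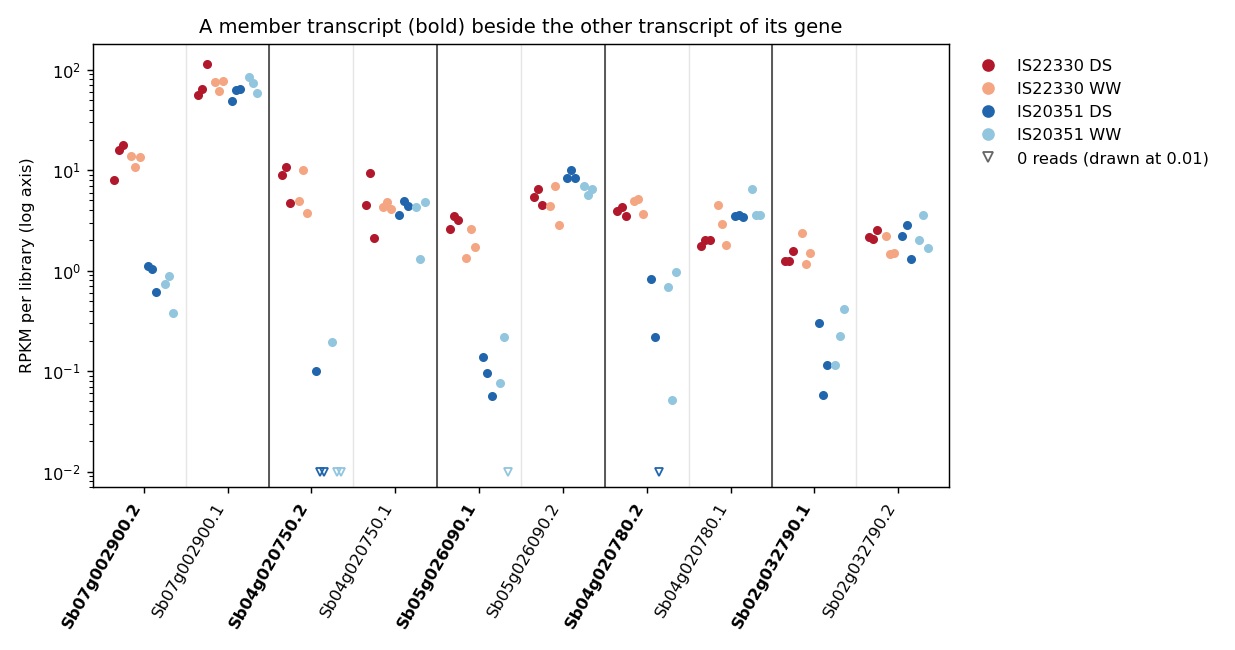
RPKM per library (log axis) of 5 member transcripts (bold) beside the other transcript of the same gene; each point is 1 library of IS22330 DS, IS22330 WW, IS20351 DS or IS20351 WW, and open triangles at 0.01 are libraries with 0 reads. The 5 genes are among those whose other transcript was within 2-fold between the genotypes, as for Sb07g002900.1 with 77.5 and 71.6 RPKM in IS22330 against 58.7 and 72.1 RPKM in IS20351.

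Member genes often lay next to one another. Sorghum identifiers give the chromosome and a gene number that runs along it, and only 4 members were on unplaced scaffolds. Of 250 placed member genes, 41 (16.4%) were directly next to another member gene, compared with 305 (1.7%) of the 17928 expressed genes. Within 10 places there were 88 (35.2%), compared with 15.1% of expressed genes. Directly next to a gene of the mirrored set were 3 member genes (1.2%), compared with 1.15% of expressed genes. Within 10 places of such a gene there were 51 (20.4%), compared with 11% of expressed genes. Genes of the mirrored set also lay next to one another, to a lesser extent in these counts, with 8 of its 166 genes (4.82%) next to another of its own. Chromosomes 5 and 8 held the highest shares of members, 3.27% and 2.56% of their expressed transcripts, where the other chromosomes held between 0.894% and 1.68%. The mirrored set also had its highest shares there, 2.34% on chromosome 5 and 1.49% on chromosome 8.

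Member genes with gene numbers up to 100 apart formed 22 pairs, 10 groups of 3 and 2 groups of 4. The group of 4 on chromosome 8 was Sb08g002285, Sb08g002296, Sb08g002350 and Sb08g002410, with 13 other genes between them. Sb08g002296.1 had 39.4, 46.4 and 19.6 RPKM in IS22330 DS and 24.9, 26.9 and 15.7 RPKM in IS22330 WW libraries, against 0.654, 1.91 and 1.31 RPKM in IS20351 DS and 1.63, 0.548 and 0.542 RPKM in IS20351 WW libraries. Sb08g002285.1 was much weaker, between 0.823 and 3.01 RPKM in IS22330 and between 0.140 and 0.570 RPKM in IS20351 libraries. From Sb08g002340 to Sb08g002390, 7 genes in a row were either members or had no reads in at least 1 IS20351 group, although only Sb08g002350 met the rule, which asked for reads in every group. Sb08g002340.1 had 4973 reads in IS22330 and 0 in IS20351, Sb08g002345.1 had 479 and 0, and Sb08g002390.1 had 6061 and 0. Sb08g002360.1 had 417 reads in IS22330 and 0 in IS20351, and Sb08g002370.1 had 178 and 0. Sb08g002380.1 had 4298 reads in IS22330 against 8 in IS20351, all 8 of them in 1 DS library. Just before this stretch, Sb08g002330.1 averaged 34.3 and 39.8 RPKM in IS22330 DS and WW plants, against 40.4 and 65.1 RPKM in IS20351 DS and WW plants. That gene was expressed in both genotypes, and the 7 after it had few or no reads in IS20351. Before it the picture was mixed: Sb08g002310.1 was under 1 RPKM in the mean of every group, and Sb08g002296.1, still earlier, is the member given above. Between Sb08g002285 and Sb08g002296, 2 genes ran the other way. Sb08g002290.1, of the mirrored set, averaged 1.87 and 1.19 RPKM in IS22330 DS and WW plants, against 7.75 and 10.4 RPKM in IS20351. Sb08g002293.1 averaged 11.5 and 4.46 RPKM in IS22330 DS and WW plants, against 32.8 and 53.9 RPKM in IS20351. Whether these genes are present in the genome of IS20351 was not tested.

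**Figure D4:**
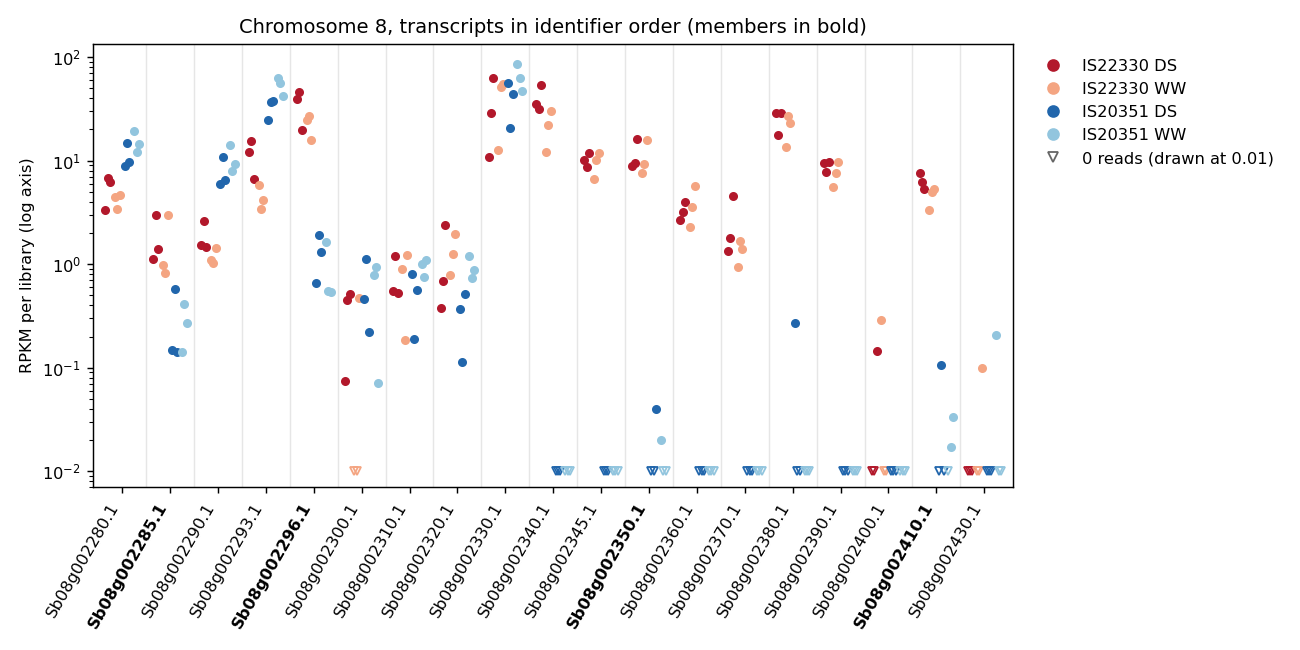
RPKM per library (log axis) of the transcripts between Sb08g002280.1 and Sb08g002430.1 in identifier order (members in bold); each point is 1 library of IS22330 DS, IS22330 WW, IS20351 DS or IS20351 WW, and open triangles at 0.01 are libraries with 0 reads. Both genotypes are level at Sb08g002330.1, and from Sb08g002340.1 to Sb08g002390.1 the IS20351 libraries are at 0 or at most 0.271 RPKM.

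The group of 4 on chromosome 5 was Sb05g008140, Sb05g008235, Sb05g008250 and Sb05g008260, with 8 other genes between them. Sb05g008140.1 had 28.1, 42.8 and 22.3 RPKM in IS22330 DS and 38.4, 36.4 and 36.6 RPKM in IS22330 WW libraries, against 0.293, 1.48 and 0.320 RPKM in IS20351 DS and 1.84, 0.564 and 2.92 RPKM in IS20351 WW libraries. Sb05g008250.1 had between 4.56 and 10.1 RPKM in IS22330 and between 0.0220 and 0.264 RPKM in IS20351 libraries, and Sb05g008235.1 between 4.24 and 9.75 RPKM in IS22330 and at most 0.613 RPKM in IS20351 libraries. All 3 had every IS22330 library above every IS20351 library. Genes between them also ran the other way. Sb05g008195.1 averaged 0.525 and 0.155 RPKM in IS22330 DS and WW plants, against 9.80 and 10.7 RPKM in IS20351 DS and WW plants. Sb05g008160.1 had 1 read in IS22330 against 892 in IS20351, where it averaged 1.70 and 0.981 RPKM in DS and WW plants. The next gene after the group, Sb05g008270.1, had 1148 reads in IS22330 and 1 in IS20351, and missed the rule only because no read fell in the IS20351 DS group.

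Most transcripts of the stretch on chromosome 8 were left out by the rule because at least 1 IS20351 group had no reads. Of 16756 transcripts at 1 RPKM or more in both IS22330 groups, 208 (1.24%) had 0 reads in all libraries of at least 1 IS20351 group, and 164 (0.979%) in all 6 IS20351 libraries. In the other direction, 76 of 16229 transcripts (0.468%) at 1 RPKM or more in both IS20351 groups had 0 reads in all 6 IS22330 libraries. Of the 250 placed member genes, 14 (5.6%) were next to such a gene with no reads in an IS20351 group, compared with 210 (1.17%) of expressed genes.

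Runs of 3 adjacent member genes occurred 3 times, and were named after their values were seen, out of 10 groups of 3 that shared the third place. Sb02g040490, Sb02g040500 and Sb02g040510 were high and low in the same IS22330 libraries. Sb02g040500.1 had 1.95, 0.337 and 34.1 RPKM in IS22330 DS and 82.3, 0.236 and 45.3 RPKM in IS22330 WW libraries. Sb02g040490.1 had 3.57, 2.13 and 10.2 RPKM in IS22330 DS and 131, 1.29 and 31.3 RPKM in IS22330 WW libraries, and Sb02g040510.1 0.657, 0 and 3.95 RPKM in IS22330 DS and 9.98, 0 and 4.59 RPKM in IS22330 WW libraries. The WW libraries a and c and the DS library c were high for all 3 genes, and the other 3 IS22330 libraries were low. In IS20351 all 3 were at most 3.19 RPKM. In the run Sb03g008140, Sb03g008150 and Sb03g008155, Sb03g008140.1 was the most even. It had 7.73, 12.6 and 6.96 RPKM in IS22330 DS and 9.52, 9.91 and 9.32 RPKM in IS22330 WW libraries, against at most 0.934 RPKM in IS20351 DS and 2.58 RPKM in IS20351 WW libraries. Sb03g008150.1 ranged between 2.37 and 7.73 RPKM in IS22330, against at most 0.877 RPKM in IS20351 libraries. Sb03g008155.1 ranged between 1.11 and 5.06 RPKM in IS22330 and overlapped IS20351, whose DS library a had 1.56 RPKM. In the run Sb02g033270, Sb02g033280 and Sb02g033290, Sb02g033280.1 exceeded both neighbours by far, which had at most 10.6 RPKM in any IS22330 library.

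Members were also shorter than other transcripts. Their median length was 1156.5 bases, compared with 1437 for expressed transcripts, and 104 members (40.6%) were under 1000 bases, compared with 27.7%. The mirrored set had a median of 1163 bases, so short length was not particular to the members.

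The response of the members to drought was then tested within each genotype with edgeR's quasi-likelihood test on the reads of all 12 libraries, with p-values adjusted by Benjamini-Hochberg over 19023 transcripts. In IS20351, 6 of 251 members were higher in DS than in WW plants at an adjusted p under 0.05, where 1.3% of all transcripts were, and 2 were lower, where 2.42% were. The members' counts are small, and their shares of 2.39% and 0.797% are read only beside those of all transcripts. A transcript entered the fit at 1 RPKM or more in at least 3 of the 12 libraries, of whichever genotype. In IS20351, 156 of the 256 members were under 1 RPKM in both groups, so that many could enter through their IS22330 libraries. Their shares in IS20351 are therefore not free of this filter, and no conclusion about the members is drawn from them. Sb10g001190.1 was far higher in stressed IS20351 plants, with 25.4, 26.8 and 2.87 RPKM in DS against 0.756, 0 and 0.145 RPKM in WW libraries (log2 ratio 5.71 ± 1.05 SE, edgeR adjusted p = 0.0399). All 3 DS libraries were above all 3 WW libraries. In IS22330 the same transcript had 219, 205 and 65.6 RPKM in DS and 84.7, 257 and 230 RPKM in WW libraries, which overlapped. The ratio between the genotypes was therefore 8.89 in DS and 634 in WW plants.

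Sb08g014620.1 had 4.98, 4.73 and 3.37 RPKM in DS against 0.695, 0.322 and 0.604 RPKM in WW libraries of IS20351 (log2 ratio 2.89 ± 0.34 SE, edgeR adjusted p = 0.0399). It reached in stressed IS20351 plants a level below that of all IS22330 libraries, which lay between 14.2 and 25.0 RPKM. Sb01g019680.1 had 1.10, 0.487 and 1.84 RPKM in DS against 0, 0.0933 and 0 RPKM in WW libraries (log2 ratio 5.02 ± 0.92 SE, edgeR adjusted p = 0.0399), and its 3 WW libraries held 4 reads in all. Sb07g026760.1 had 2.57, 3.23 and 1.62 RPKM in DS against 0.499, 0.394 and 0.630 RPKM in WW libraries (log2 ratio 2.14 ± 0.44 SE, edgeR adjusted p = 0.0403). The ceramidase family transcript Sb03g028410.1, whose values are given above, had a log2 ratio of 2.83 ± 0.62 SE (edgeR adjusted p = 0.0411). Sb06g001820.1 had 0.994, 0.290 and 1.14 RPKM in DS against 0, 0.0926 and 0 RPKM in WW libraries (log2 ratio 4.21 ± 0.96 SE, edgeR adjusted p = 0.0428), the WW value resting on 1 read. Fitted ratios against libraries with 0 reads depend on the prior count and are no bounds.

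Of the members lower in stressed IS20351 plants, Sb01g016050.1 had 1.04, 0.866 and 0.284 RPKM in DS against 3.84, 16.0 and 3.83 RPKM in WW libraries (log2 ratio -3.52 ± 0.67 SE, edgeR adjusted p = 0.0399). It was high and even in IS22330, between 53.6 and 95.6 RPKM. Sb06g004030.1 had 0.536, 0.304 and 0.192 RPKM in DS against 1.22, 0.936 and 1.30 RPKM in WW libraries (log2 ratio -1.86 ± 0.42 SE, edgeR adjusted p = 0.0423). The next by p did not pass: Sb05g009120.1 (log2 ratio -2.57, edgeR adjusted p = 0.0524), Sb01g030930.1 (-4.34, edgeR adjusted p = 0.0525) and Sb03g002590.1 (-3.70, edgeR adjusted p = 0.0553). The 8 calls lie close to the threshold: none of the 8 passed when any 1 of the 6 IS20351 libraries, or IS22330 WW library a or c, was left out. Without the IS22330 DS library c, 15 members were higher and 17 lower of 245, where 6.17% and 9.26% of all transcripts were. All 3 DS libraries were above all 3 WW libraries of IS20351 for 24 members (21.5% of all transcripts) and below them for 23 (15.2% of all).

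In IS22330 no member passed, and no other transcript did (0% of all in either direction by edgeR). At an unadjusted p under 0.05, 7 members were higher in DS plants, where 5.45% of all transcripts were, and 8 were lower, where 5.56% were. DESeq2 called 1 of 246 members higher, where 0.518% of all transcripts were, and 1 lower, where 0.523% were. By limma no member passed, and 1 of all 19023 transcripts did. Sb02g025640.1 had 296, 240 and 68.4 RPKM in DS against 36.2, 38.0 and 63.5 RPKM in WW libraries of IS22330 (log2 ratio 2.12 ± 0.48 SE, edgeR adjusted p = 0.385), so that all DS libraries were above all WW libraries. In IS20351 it had 56.0, 36.9 and 36.9 RPKM in DS against 11.4, 6.18 and 15.1 RPKM in WW libraries (log2 ratio 1.88 ± 0.48 SE, edgeR adjusted p = 0.0536). It thus stood higher in DS libraries of both genotypes, with no overlap in either, and passed in neither. Sb02g025150.1 had 17.4, 29.9 and 31.2 RPKM in DS against 58.6, 71.3 and 146 RPKM in WW libraries of IS22330 (log2 ratio -1.76 ± 0.41 SE, edgeR adjusted p = 0.385). In IS20351 it was level, with 3.52, 3.22 and 3.96 RPKM in DS against 3.60, 4.69 and 2.002 RPKM in WW libraries. DESeq2 passed these 2 members.

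The other members of lowest p in IS22330 were Sb09g025840.1, Sb03g005870.1, Sb01g016410.1 and Sb05g021600.1, with log2 ratios of 2.81, 1.09, 1.08 and 1.87, and Sb05g009120.1, Sb01g030930.1, Sb02g007730.1 and Sb04g024750.1, with log2 ratios of -1.72, -2.50, -2.49 and -1.03. Their edgeR adjusted p lay between 0.404 and 0.443. Sb03g005870.1 was the most even of them, with 4.69, 6.30 and 3.90 RPKM in DS against 2.37, 2.35 and 2.29 RPKM in WW libraries. All 3 DS libraries were above all 3 WW libraries of IS22330 for 7 members (4.93% of all transcripts) and below them for 10 (9.13% of all). With the 2 DS libraries other than c, where 2 libraries separate from 3 more readily, these counts were 69 (26.1% of all) and 39 (19.8% of all). Without the DS library c, 2 members were higher, where 1.19% of all transcripts were, and 5 lower, where 3.03% were. Those higher were Sb02g025640.1 (log2 ratio 2.49 ± 0.39 SE, edgeR adjusted p = 0.0138) and the ceramidase family transcript Sb03g028410.1 (1.60 ± 0.38 SE, edgeR adjusted p = 0.0467). With other single libraries left out, their adjusted p reached 0.846 and 0.893. Those lower were Sb02g025120.1, Sb02g025150.1, Sb03g009240.1, Sb04g025070.1 and Sb08g014630.1, with log2 ratios of -3.58, -2.04, -2.16, -1.81 and -0.93. Sb03g028410.1 was thus called higher in stressed plants of IS20351 in the fit of all libraries and in IS22330 only without that library.

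**Figure D5:**
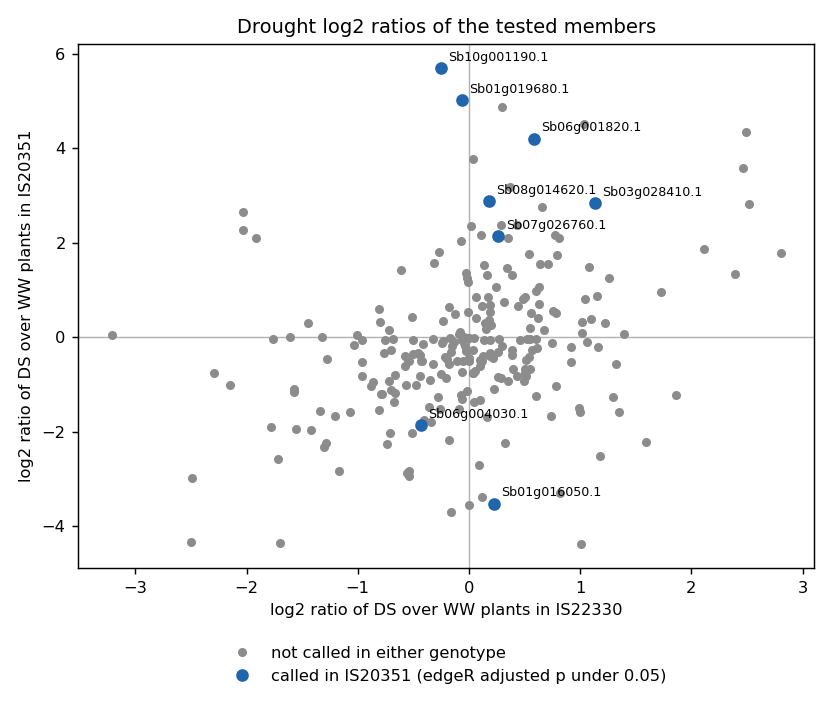
Fitted log2 ratio of DS over WW plants in IS22330 (horizontal axis) and in IS20351 (vertical axis) for the 251 members tested; each point is 1 transcript, and those called in IS20351 (edgeR adjusted p under 0.05) are blue and named. The cloud is wider along the vertical axis, with 110 members past 1 in size in IS20351 and 55 in IS22330.

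Over the 251 members, the median log2 ratio of DS over WW plants was 0.03 in IS22330, where that of all transcripts was 0.01, and -0.26 in IS20351, where that of all transcripts was 0.03. The value in IS20351 was -0.10 without its WW library b and -0.14 by limma. The log2 ratio exceeded 1 in size for 55 members (21.9%) in IS22330, compared with 13.2% of all transcripts (without the DS library c, 38.4% of members and 23.8% of all transcripts), and for 110 members (43.8%) in IS20351, compared with 26.3%. The members in IS20351 had a median of 12 or 13 reads a library, and many could enter the fit through their IS22330 libraries. The part of these low counts in the wider ratios was not tested. The sign was the same in both genotypes for 160 members (63.7%), compared with 69.6% of all transcripts. Across transcripts, which are not independent replicates, the log2 ratios in the genotypes had a Pearson r of 0.33 for the members and of 0.46 for all transcripts. The difference between the genotypes in the response to drought, tested as an interaction in edgeR, passed for 0 of 251 members at an adjusted p under 0.05. At an unadjusted p under 0.05 it was met by 21 members (8.37%), compared with 5.93% of all transcripts, of which 12 had a larger and 9 a smaller log2 ratio in IS22330. Without the IS22330 DS library c the interaction passed for 0 of 245 members at an adjusted p under 0.05, and 24 (9.8%) had an unadjusted p under 0.05, compared with 4.78% of all transcripts. The interaction is the difference between the DS and WW genotype ratios, which the rule bounded, so these shares are not free of that choice.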

How the data were processed

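The authors aligned reads to the Ensembl Plants sorghum genome with SOAPaligner/SOAP2 and deposited, for each of the 4 groups, the mean over 3 libraries of the uniquely mapped reads of each transcript (a mean of whole counts, entered as an estimated count because it need not be whole) and of its RPKM, a library without reads being entered as 0.001. The whole reads of each library were solved here from both deposited means for 27986 of 27989 transcripts and checked on simulated data. The fit used edgeR 4.0.16 in R 4.3.3 (TMM, prior count 0.125, 4 group means, transcripts at 1 RPKM or more in at least 3 libraries, 19023 tested, common biological coefficient of variation 0.464), with limma 3.58.1 on log2(RPKM + 0.1) and DESeq2 1.42.0 as alternatives. Other steps used Python 3.11.15, pandas 2.3.3, numpy 2.4.6 and matplotlib 3.10.9. The labels call the libraries of a group biological replicates, and p-values measure the spread between them. The SE given with a log2 ratio was derived as its size over the square root of the quasi-likelihood F statistic. It is not a standard error from the fit itself, and it means least where libraries hold no reads.

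Named were the 10 members of largest smaller ratio, the 10 of highest IS22330 level, the 5 of lowest p in each direction of each drought comparison, those on the study's pathway list, the longest runs of neighbours, the 3 on each side of the threshold and those with most transcripts of a gene; others were named after their values were seen. Members and lists were chosen with earlier results of these data known. Annotation families could not be read, because the reference table pairs no product names with these identifiers, and no sequences were used here.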

Additional observations from a re-analysis of the deposited data

How the results depend on the processing

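With a minimum ratio of 6, 164 transcripts met the rule, and with a minimum of 5 RPKM in IS22330, 139 did. Ratios of at least 3 gave 374, a minimum of 0.5 RPKM 304, RPKM rescaled by TMM factors 255, and the median of 3 libraries 220; leaving out 1 library gave between 240 and 274. The number of members called in IS22330 was 0 to 7 with 1 library left out, 7 only without DS library c, and 2 by DESeq2. In IS20351 it was 0 to 32 with 1 library left out, 36 by DESeq2 (17 higher and 19 lower, 6.91% and 7.72% of members, where 7.33% and 9.06% of all transcripts were), 13 with the 6 libraries of that genotype alone (2.79% higher and 2.39% lower, where 3.59% and 6.13% of all were), 7 by limma (1.99% and 0.797%, where 1.21% and 1.92% of all were), 6 with no filter on low values (1.95% and 0.391%, where 0.518% and 1.04% of all were), and 0 under the stricter limits of the study's methods (0.001 for the adjusted p, 2 for the size of the log2 ratio). All 8 members were called by DESeq2, and 6 of the 8 in that genotype alone and by limma. The median log2 ratio of the members ranged between -0.35 and -0.10 in IS20351 and between -0.04 and 0.14 in IS22330 with 1 library left out, and was -0.14 and -0.08 by limma. The cause of these changes was not tested. Settings chosen after seeing the data were the library left out of the count with all IS22330 above all IS20351 libraries (185 to 200) and, for member genes next to another, 1 library left out (35 to 41) and ratios of 3 (52) and of 6 (17).

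No paired analysis was possible because the deposited means carry no replicate numbers, so that libraries cannot be matched between groups. Members with few reads in IS20351 have wide counting intervals on their ratios. Whether depth limits their drought tests there was not tested.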

Other observations

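Some members were high or low in the same 2 IS22330 libraries of unlike treatment. Of 19610 transcripts at 1 RPKM or more in an IS22330 library, 44 stood at least 10-fold apart in DS library c and WW library b from the other 4 libraries, 19 higher and 25 lower. DS libraries a and b stood apart in this way for 50 transcripts and DS library c with WW library a for 33, while the other 12 pairs did so for between 0 and 10. Members in the first group were Sb09g025510.1 and Sb04g027355.1, which were higher, and Sb02g007190.1 and Sb09g023910.1, which were lower. Sb04g027355.1 had 0, 0 and 11.4 RPKM in DS and 0.266, 11.9 and 0 RPKM in WW libraries of IS22330. Sb09g023910.1 had 33.0, 34.6 and 0 RPKM in DS and 22.0, 0 and 22.9 RPKM in WW libraries of IS22330, against 0.969, 1.79 and 0.926 RPKM in DS and 0.493, 0.338 and 0.167 RPKM in WW libraries of IS20351. Sb02g007190.1 had 9.08, 9.37 and 0.0165 RPKM in DS and 8.20, 0.0160 and 5.86 RPKM in WW libraries of IS22330. These 4 members were picked out after their values were seen, and what the 2 plants share was not tested.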
